A study of Mus musculus with 8 samples.

Results

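Receptors that restrain lymphocytes, with the transcription factor Tox, were followed through the immune cells of MC38 tumours (MC38 is a mouse colon carcinoma cell line that is grafted to form tumours). The 8 genes, Pdcd1, Ctla4, Havcr2, Lag3, Tigit, Cd160, Cd244a and Tox, were chosen by name from the 27405 genes listed over all libraries, and all 8 were present in each library. The samples were CD45+ cells, that is, cells carrying the pan-leukocyte surface protein, sorted from tumours of wild-type genotype. The groups were LNP-Sirpa (2 libraries) and control (2 libraries), with 1 batch label shared by all 4 libraries. The labels give neither the content or dose of LNP-Sirpa nor what the control tumours received, and they state no age, no sex and no number of animals per library. They do not say that the libraries came from separate animals either, so the p-values below measure the spread between these libraries, which may be technical.

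PD-1 (Pdcd1), CTLA-4 (Ctla4), TIM-3 (Havcr2), LAG-3 (Lag3) and TIGIT (Tigit) are surface receptors that dampen signals from the T cell receptor or from costimulation when their ligands are engaged. CTLA-4 and TIGIT are also standing features of regulatory T cells, while 2B4 (Cd244a) and CD160 (Cd160) are shared between NK cells and CD8 T cells. TOX is a nuclear factor needed for the exhausted state, in which T cells under lasting antigen stimulation in tumours or chronic infection hold several of these receptors together.

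The 4 libraries held between 68654004 and 90789729 UMIs (unique molecular identifiers, each standing for 1 captured RNA molecule), and 37717 of 37757 cells passed the filters. Lymphocytes were gated on UMIs of lineage genes that are not among the 8. All T cells had at least 3 UMIs of the Cd3 genes and fewer than 2 of the NK markers. Among them CD8 T cells had at least 2 UMIs of Cd8a and Cd8b1 and none of Cd4 or Foxp3, regulatory T cells had a Foxp3 UMI and fewer than 2 of the Cd8 genes, and Foxp3-negative CD4 T cells had UMIs of Cd4 with none of Foxp3 or the Cd8 genes. NK cells had at least 2 UMIs of Ncr1 and Klrb1c and at most 1 of the Cd3 genes. In each of these gates the 13 phagocyte marker genes had to stay at or under 1% of the cell's UMIs. LNP-Sirpa 1 and 2 gave 574 and 430 CD8 T cells, against 73 and 334 in control 1 and 2. Regulatory T cells numbered 283 and 201 in the LNP-Sirpa libraries, against 84 and 89 in the controls, and Foxp3-negative CD4 T cells 111 and 104, against 12 and 35. NK cells numbered 288 and 55 in the LNP-Sirpa libraries, against 160 and 106 in the controls. The names of regulatory T and NK cells followed markers that the gates had not used. The 5 check genes of regulatory T cells summed to between 4012 and 5027 UMIs per 1000000 UMIs (CPM) in that gate and between 935 and 1166 CPM in CD8 T cells. The 7 NK check genes summed to between 2717 and 9371 CPM in NK cells and between 57.0 and 65.9 CPM in regulatory T cells. In CD8 T cells they summed to 411 and 2486 CPM in LNP-Sirpa 1 and 2, and to 494 and 261 CPM in control 1 and 2. LNP-Sirpa 2 thus came near the NK cells of control 2. The 4 check genes of CD8 T cells summed to 4517 and 9476 CPM in CD8 T cells of LNP-Sirpa 1 and 2, and to 4609 and 5118 CPM in the controls. In NK cells they summed to 3546 and 5881 CPM, and to 1655 and 1757 CPM, so the ranges overlapped. The 4 check genes of CD4 T cells did not set the Foxp3-negative gate apart. In LNP-Sirpa 1 and 2 they summed to 1216 and 1307 CPM there, against 1356 and 1621 CPM in regulatory T cells. In control 1 and 2 they summed to 2661 and 1212 CPM, against 1115 and 1212 CPM. The regulatory T check genes summed to between 1767 and 3129 CPM in the Foxp3-negative gate.

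Some facts on the libraries touch what follows. Of 5983 cells with at least 3 Cd3 UMIs, 2850 were over the phagocyte limit and were left out. The gate thus held a minority of the transcripts: 30.0% of all Pdcd1 UMIs lay in the CD8 T gate, and 40.2% in Cd3-positive cells over the limit. LNP-Sirpa 2 stood apart in its CD8 T gate, where 111 of 430 cells (25.8%) carried a UMI of Trdc, Trgc1 or Tcrg-C1, constant-region genes of the gamma delta T cell receptor, of which the first and the second were measured. The share was 18 of 574 (3.14%) in LNP-Sirpa 1, against 0 of 73 in control 1, which allows a share of up to 4.11%, and 2 of 334 (0.599%) in control 2. The comparisons of CD8 T cells were therefore also run without those cells, a choice made after seeing the data. Between the lymphocyte types, leaving them out of the T cell gates changed no call of a member, with Pdcd1 at 1.80, Ctla4 at -1.72 and Lag3 at 0.69 (log2) for CD8 T over regulatory T cells. Sirpa itself, measured where it is normally made, in the 12765 cells of a phagocyte gate, stood at 493 and 338 CPM in LNP-Sirpa 1 and 2 and at 554 CPM in each control, and its fold of -0.28 ± 0.22 (log2, SE) did not pass (adjusted p = 0.621, edgeR's quasi-likelihood test with Benjamini-Hochberg adjustment over 14248 genes).

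The 250 bases before the transcription start of Ctla4 and Pdcd1 are shown because these were the members with the clearest opposite placement between T cell types. The sequences are from RefSeq on GRCm38.p6, not the build of the counts, at chr1:60908775-60909024 on the plus strand for Ctla4 and chr1:94052554-94052803 on the minus strand for Pdcd1, each written 5′ to 3′ on its gene's strand. Capitals mark the letters GGAAA, or TTTCC on the other strand, the core bound by NFAT, a factor that T cell receptor signals switch on.
Ctla4: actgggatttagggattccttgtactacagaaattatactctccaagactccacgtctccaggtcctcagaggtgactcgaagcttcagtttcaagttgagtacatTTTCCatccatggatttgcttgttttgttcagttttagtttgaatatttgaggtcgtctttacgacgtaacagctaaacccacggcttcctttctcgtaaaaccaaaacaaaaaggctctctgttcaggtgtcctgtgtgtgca
Pdcd1: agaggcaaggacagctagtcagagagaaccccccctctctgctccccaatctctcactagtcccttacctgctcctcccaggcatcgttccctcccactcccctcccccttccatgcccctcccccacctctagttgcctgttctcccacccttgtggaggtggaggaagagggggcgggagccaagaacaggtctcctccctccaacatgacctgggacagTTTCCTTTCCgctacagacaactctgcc
Ctla4 held 1 match and Pdcd1 held 2 that adjoin without overlap. The same letters occurred in 18254 of 32851 promoters of that length (55.6%), so a match is a description of these letters and nothing more. RefSeq promoter entries were found for 6 of the 8 genes.

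Each level below is the gene's share of all UMIs in the gated cells of 1 library, in CPM, given in the order LNP-Sirpa 1, LNP-Sirpa 2, control 1, control 2. A level over a gate cannot tell fewer positive cells from less RNA per cell. The types were compared in 1 model over 16 sums (4 types in 4 libraries) with the library as a block, across 8936 genes, and a difference was called at an adjusted p under 0.05 (edgeR's quasi-likelihood test with Benjamini-Hochberg adjustment, used for every adjusted p below).

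**Figure D1:**
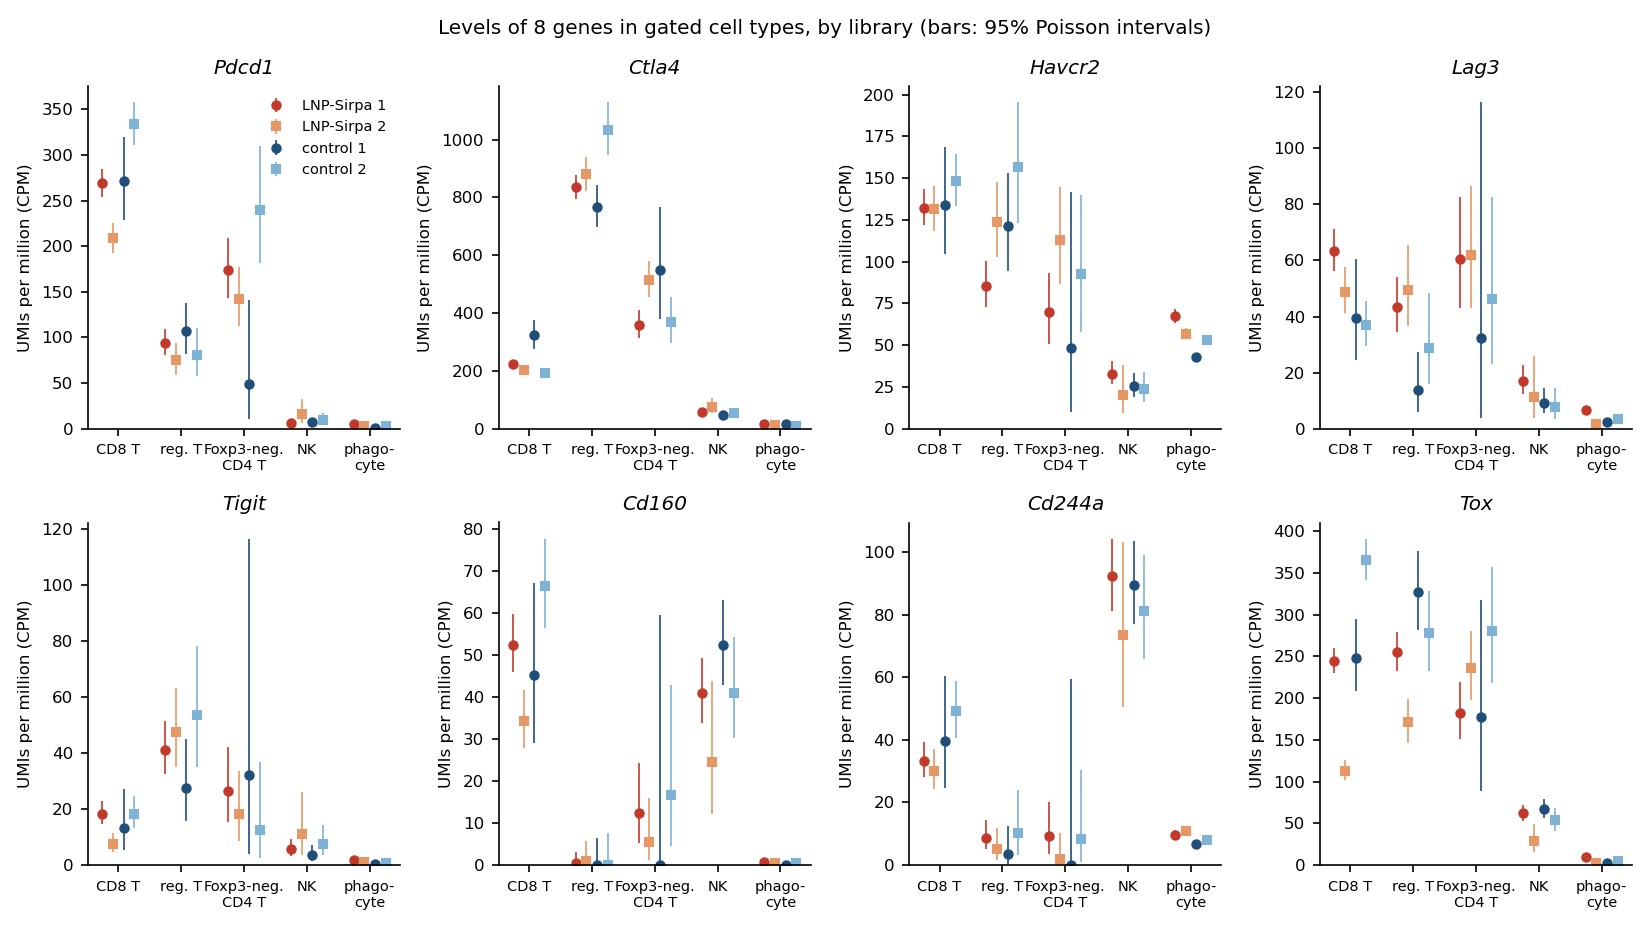
Levels of the 8 genes in CPM (vertical axis, linear, starting at 0) in each gated type (horizontal axis), with 1 point for each library and its 95% Poisson interval. Pdcd1 sits between 209 and 334 CPM in CD8 T cells, Ctla4 between 767 and 1035 CPM in regulatory T cells, and Cd160 and Cd244a are low in both CD4 types.

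Pdcd1 encodes PD-1, the receptor for PD-L1 and PD-L2. In CD8 T cells it reached 269, 209, 271 and 334 CPM. Regulatory T cells had 93.8, 74.9, 107 and 80.3 CPM, below every CD8 T value. Foxp3-negative CD4 T cells had 173, 142, 48.4 and 239 CPM, the spread being widest in the controls, where control 1 had 12 such cells. NK cells had 6.48, 15.6, 6.85 and 9.22 CPM, above the 4.89, 2.38, 1.11 and 3.26 CPM of phagocytes. Pdcd1 was higher in CD8 T cells than in regulatory T cells by 1.75 ± 0.18 (log2, SE; adjusted p = 5.6e-08), than in Foxp3-negative CD4 T cells by 0.83 ± 0.19 (adjusted p = 0.00516) and than in NK cells by 4.97 ± 0.24 (adjusted p = 1.64e-13). Regulatory T cells were below Foxp3-negative CD4 T cells by a log2 fold of -0.92 ± 0.21 (adjusted p = 0.0104). The order was thus CD8 T, Foxp3-negative CD4 T, regulatory T and NK cells. Its middle steps depended on single libraries and settings. Without LNP-Sirpa 1 the step from CD8 T to Foxp3-negative CD4 T cells had an adjusted p of 0.0552, and under a stricter gate (1 more UMI of each lineage marker asked for) it was 0.56, with an adjusted p of 0.116. The step from regulatory T to Foxp3-negative CD4 T cells had an adjusted p of 0.147 without LNP-Sirpa 1, of 0.0575 without LNP-Sirpa 2, of 0.123 without control 2 and of 0.0678 by DESeq2.

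Ctla4 encodes CTLA-4, which competes with CD28 for CD80 and CD86, and its order among the T cell types ran the other way. CD8 T cells had 222, 202, 322 and 191 CPM. Regulatory T cells had 836, 880, 767 and 1035 CPM, above all CD8 T values. Foxp3-negative CD4 T cells lay between at 359, 515, 548 and 369 CPM, and NK cells at 58.7, 75.7, 48.4 and 55.3 CPM were lowest of the 4 types. CD8 T cells differed from regulatory T cells by a log2 fold of -1.76 ± 0.15 (adjusted p = 2.13e-09) and from Foxp3-negative CD4 T cells by -0.75 ± 0.16 (adjusted p = 0.00265). Regulatory T cells stood above Foxp3-negative CD4 T cells by 1.01 ± 0.16 (adjusted p = 0.000211), so that all 3 steps between T cell types were called. The step from CD8 T to Foxp3-negative CD4 T cells was lost without LNP-Sirpa 2 (-0.56, adjusted p = 0.0687) and without cycling cells (-0.57, adjusted p = 0.241).

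Havcr2 encodes TIM-3, which myeloid cells carry as well. Its level was 132, 131, 134 and 148 CPM in CD8 T cells and 85.6, 123, 121 and 156 CPM in regulatory T cells, and these ranges overlapped. Foxp3-negative CD4 T cells had 69.7, 113, 48.4 and 92.3 CPM, and NK cells 32.8, 20.03, 25.4 and 23.5 CPM. Phagocytes held 67.2, 56.7, 42.7 and 53.1 CPM, more than NK cells in every library. CD8 T cells were above Foxp3-negative CD4 T cells by 0.79 ± 0.19 (log2, SE; adjusted p = 0.00611, and 0.0828 without LNP-Sirpa 1 and 0.246 under the stricter gate) and above NK cells by 2.17 ± 0.18 (adjusted p = 1.58e-10). Against regulatory T cells the log2 fold of 0.40 ± 0.16 was not called (adjusted p = 0.0815), with a 95% interval of 0.09 to 0.71. Phagocyte transcripts were present in the gates: Sirpa stood at 98.7 to 138 CPM in CD8 T cells and at 338 to 554 CPM in phagocytes. Havcr2 was higher in CD8 T cells than in phagocytes in all 4 libraries. The part of phagocyte transcripts in the Havcr2 level of CD8 T cells was not tested.

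Lag3, whose product binds MHC class II and sits close to CD4 in structure, showed shallower steps. It had 63.5, 48.9, 39.6 and 36.8 CPM in CD8 T cells, 43.3, 49.6, 13.8 and 28.8 CPM in regulatory T cells, and 60.4, 61.9, 32.3 and 46.1 CPM in Foxp3-negative CD4 T cells. NK cells had 16.9, 11.1, 9.29 and 7.54 CPM and were below every T cell type in each library. CD8 T cells exceeded NK cells by 1.82 ± 0.21 (log2, SE; adjusted p = 1.36e-07). The difference of 0.62 ± 0.19 between CD8 T and regulatory T cells was called (adjusted p = 0.0162). It was lost without LNP-Sirpa 1 (adjusted p = 0.159), without control 1 (adjusted p = 0.0586), without cells of high UMI count (0.29, adjusted p = 0.34) and without cycling cells (0.30, adjusted p = 0.471). CD8 T and Foxp3-negative CD4 T cells differed by 0.05 ± 0.21 (adjusted p = 0.957, 95% interval -0.37 to 0.46).

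Tigit, whose product shares the ligand CD155 with the activating receptor CD226, was highest in regulatory T cells. CD8 T cells had 18.3, 7.53, 13.2 and 18.2 CPM, regulatory T cells 41.1, 47.6, 27.7 and 53.5 CPM, and NK cells 5.76, 11.1, 3.42 and 7.54 CPM. The CD8 T and regulatory T ranges did not overlap, and the log2 fold of CD8 T over regulatory T cells was -1.43 ± 0.25 (adjusted p = 6.28e-05). Foxp3-negative CD4 T cells, at 26.3, 18.2, 32.3 and 12.6 CPM, lay between and were not told apart from either: the fold was -0.41 ± 0.36 for CD8 T over them (adjusted p = 0.634) and 1.03 ± 0.34 for regulatory T over them (adjusted p = 0.085). CD8 T over NK cells gave 1.11 ± 0.33 (adjusted p = 0.0176), a call that was lost on leaving out LNP-Sirpa 1 (0.81, adjusted p = 0.317), control 1 (adjusted p = 0.066), control 2 (adjusted p = 0.0716), cells of high UMI count (0.86, adjusted p = 0.108) or cycling cells (1.10, adjusted p = 0.0675). Foxp3-negative CD4 T over NK cells was called too, but not without LNP-Sirpa 1 (1.15, adjusted p = 0.225) or under the stricter gate (1.23, adjusted p = 0.108).

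Cd160 and Cd244a had a layout unlike the other 6 genes. Cd160, whose product is a receptor for the TNF-receptor family member HVEM, gave 52.5, 34.2, 45.2 and 66.5 CPM in CD8 T cells and 41.1, 24.5, 52.3 and 41.1 CPM in NK cells. These ranges overlapped, and the log2 fold of 0.21 ± 0.18 was not called (adjusted p = 0.503, 95% interval -0.14 to 0.57). In regulatory T cells it was all but absent, with 2 UMIs over the 4 libraries (0.548 and 1.01 CPM in LNP-Sirpa 1 and 2, and 0 in control 1 and 2, where 3 UMIs would make 5.19 and 6.17 CPM). Over pooled libraries the CD8 T level was 97.2 times that of regulatory T cells, with an exact 95% interval of 26.8 to 804 from 511 against 2 UMIs that covers counting error only. The fitted log2 fold of 6.505 ± 0.42 (adjusted p = 1.22e-12) rests on those 2 UMIs and on the model's prior count. Foxp3-negative CD4 T cells had 12.4, 5.46, 0 and 16.8 CPM, and CD8 T cells were above them by 2.38 ± 0.32 (adjusted p = 4.74e-06). Regulatory T cells were called below Foxp3-negative CD4 T cells, but not without LNP-Sirpa 1 (adjusted p = 0.0672), without cells of high UMI count (adjusted p = 0.333) or without cycling cells (adjusted p = 0.616).

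Cd244a, the gene of 2B4, which binds CD48 and signals through SAP-family adaptors, was the one member highest in NK cells. CD8 T cells had 33.3, 30.1, 39.6 and 49.1 CPM, and NK cells had 92.2, 73.5, 89.5 and 81.3 CPM. Every CD8 T value lay below every NK value, and the log2 fold of CD8 T over NK cells was -1.30 ± 0.17 (adjusted p = 1.34e-06). Regulatory T cells had 8.77, 5.06, 3.46 and 10.3 CPM, less than the 9.48, 10.8, 6.59 and 7.93 CPM of phagocytes in all libraries but control 2. CD8 T cells exceeded regulatory T cells by 2.53 ± 0.27 (adjusted p = 1.4e-08) and Foxp3-negative CD4 T cells by 2.73 ± 0.38 (adjusted p = 7.21e-06), and the 2 CD4 types differed by 0.20 ± 0.54 (adjusted p = 0.942).

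Tox did not separate the T cell types. It had 245, 113, 249 and 366 CPM in CD8 T cells, 256, 171, 327 and 278 CPM in regulatory T cells, and 183, 237, 177 and 281 CPM in Foxp3-negative CD4 T cells, all 3 ranges overlapping. The log2 fold was 0.05 ± 0.21 for CD8 T over regulatory T cells (adjusted p = 0.923, 95% interval -0.36 to 0.47) and 0.13 ± 0.24 for CD8 T over Foxp3-negative CD4 T cells (adjusted p = 0.866, 95% interval -0.34 to 0.59). NK cells had 61.9, 28.9, 67.0 and 53.6 CPM, and CD8 T cells were above them by 1.98 ± 0.24 (adjusted p = 2.73e-05). In phagocytes Tox lay between 2.38 and 10.2 CPM.

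**Figure D2:**
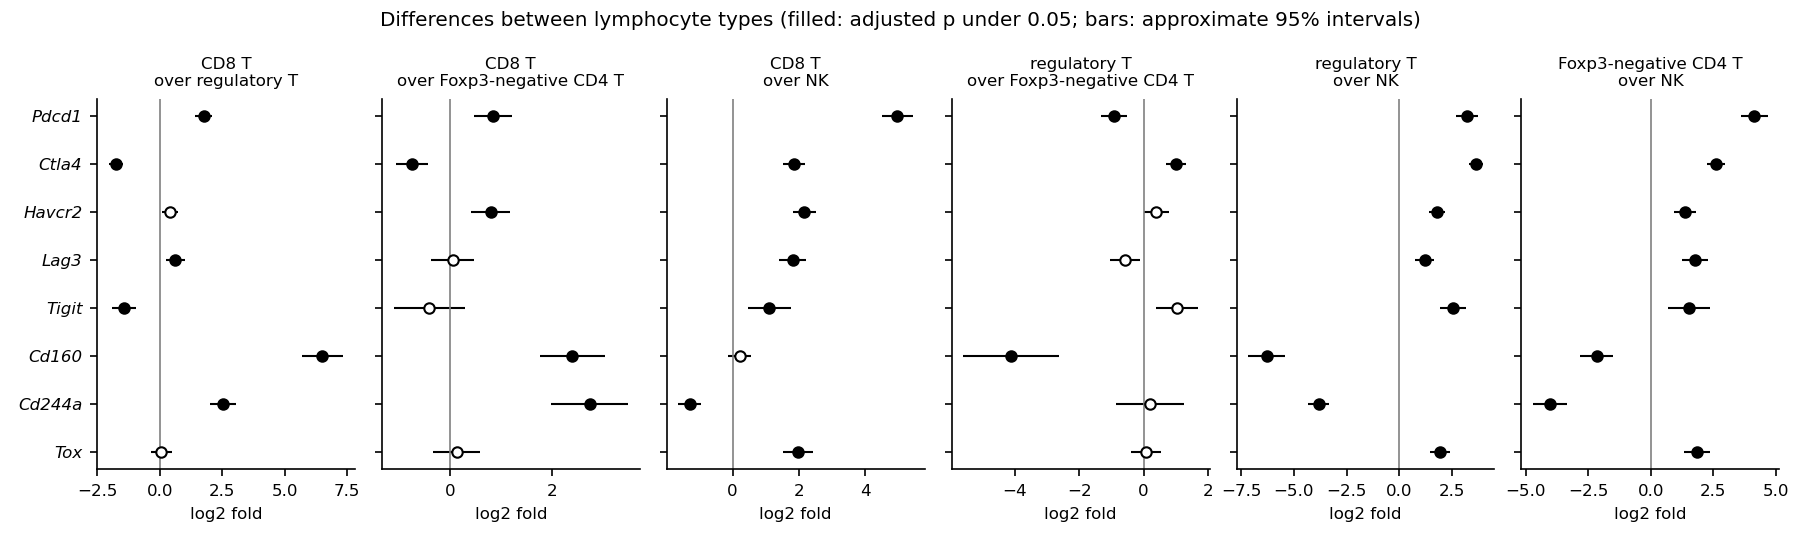
Log2 folds of the 8 genes (rows) between the 6 pairs of lymphocyte types (panels, each with its own horizontal axis), first-named type over the second, with bars for approximate 95% intervals and filled points for adjusted p under 0.05. Cd160 and Cd244a fall on the opposite side from the other 6 genes in both panels that set a CD4 type over NK cells, while Tox lies near 0 between T cell types.

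Counted over the 8 genes, CD8 T over regulatory T cells had 6 called (4 higher, 2 lower), where 18.5% of all genes tested were called (8.66% higher, 9.83% lower). CD8 T over Foxp3-negative CD4 T cells had 5 (4 higher, 1 lower), against a background of 8.25% (4.01% higher, 4.24% lower), and CD8 T over NK cells had 7 (6 higher, 1 lower), against 16.3% (7.77% higher, 8.5% lower). Regulatory T over Foxp3-negative CD4 T cells had 3, with Ctla4 higher and Pdcd1 and Cd160 lower, against 4.23% (2.18% higher, 2.05% lower). All 8 were called for regulatory T over NK cells (6 higher, 2 lower), against 33% (16.6% higher, 16.4% lower), and for Foxp3-negative CD4 T over NK cells (6 higher, 2 lower), against 22.6% (11.1% higher, 11.5% lower). The median log2 fold of the 8 was 0.51 for CD8 T over regulatory T cells and 1.84 for CD8 T over NK cells, where the median of all genes was 0.01 for the second pair and closer to 0 for the first. The low genes in both pairs with NK cells were Cd160 and Cd244a: over NK cells, Cd244a had -3.83 ± 0.25 in regulatory T cells and -4.02 ± 0.35 in Foxp3-negative CD4 T cells, and Cd160 had -6.29 ± 0.45 and -2.17 ± 0.34.

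Other genes of the pathway were followed in 3 lists. Of the 20 costimulatory and further inhibitory receptors tested in CD8 T over regulatory T cells, 3 were higher and 10 lower, with a median log2 fold of -0.54. The higher ones included Klrc1 (3.96 ± 0.25, adjusted p = 1.89e-11), the NKG2A receptor, and Cd96 (2.82 ± 0.24, adjusted p = 2.45e-10), a further CD155 receptor. Tnfrsf4 (-2.86 ± 0.15, adjusted p = 1.64e-12) and Tnfrsf18 (-1.59 ± 0.14, adjusted p = 7.84e-10), the costimulatory receptors OX40 and GITR, were lower. Of 23 transcription factors, 8 were higher and 8 lower, with a median of 0.26. Runx3, a factor of the CD8 lineage, was higher (1.48 ± 0.12, adjusted p = 9.34e-11), and Maf (-2.82 ± 0.21, adjusted p = 3.79e-08), Batf (-1.48 ± 0.16, adjusted p = 3.8e-08) and Prdm1 (-1.44 ± 0.17, adjusted p = 1.61e-07) were lower. Of 20 signalling genes, 5 were higher and 3 lower, with a median of 0.12, among them Sh2d1a (1.41 ± 0.20, adjusted p = 2.72e-06), which encodes the adaptor SAP used by 2B4, and Ptpn6 (0.80 ± 0.14, adjusted p = 7.96e-05), which encodes the phosphatase SHP-1. Tnfrsf4, Icos, Cd2, Ikzf2, Eomes and Lat of these lists also served as marker checks.

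The same lists went as follows in the other pairs. For CD8 T over Foxp3-negative CD4 T cells, 4 receptors were higher and 6 lower, 3 factors higher and 7 lower, and 2 signalling genes higher and 2 lower. Tox2, the relative of Tox, was among the lower factors there (-3.03 ± 0.62, adjusted p = 0.00123) as it was against regulatory T cells (-2.70 ± 0.53, adjusted p = 0.000279), and it is named here after its values were seen. For CD8 T over NK cells, 14 receptors were higher and 1 lower, 4 factors higher and 5 lower, and 11 signalling genes higher and 1 lower. That 1 was Sh2d1b1 (-3.73 ± 0.27, adjusted p = 1e-11), the gene of the NK adaptor EAT-2 that also serves 2B4. For regulatory T over Foxp3-negative CD4 T cells the counts were 5 and 3, 2 and 4, and 0 and 3, for regulatory T over NK cells 15 and 3, 8 and 7, and 11 and 4, and for Foxp3-negative CD4 T over NK cells 13 and 2, 9 and 3, and 9 and 2, each pair giving higher before lower.

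Across the 16 sums, the genes whose log2(CPM + 1) followed Pdcd1 most closely among 5937 genes averaging at least 20 CPM were Cxcr6 (Pearson r = 0.95), Trbc2 (0.94) and Grap2 (0.94). Those most like Tox were Zdhhc2 (0.95), Gtdc1 (0.94) and Crbn (0.93). Among the members, Pdcd1 followed Havcr2 (0.88), Tox (0.83) and Lag3 (0.82), and Cd160 hardly (-0.09). These coefficients are descriptions, since sums of 1 library share its depth and the 4 types set most of the spread.

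LNP-Sirpa and control libraries were then compared within each type. In CD8 T cells none of the 8 genes was called, where 0.762% of 10493 genes were (80 genes, 69 higher and 11 lower). Lag3 was 63.5 and 48.9 CPM in LNP-Sirpa 1 and 2 and 39.6 and 36.8 CPM in control 1 and 2. Both LNP-Sirpa values lay above both controls, and the log2 fold was 0.58 ± 0.24 (adjusted p = 0.409). Tox was 245 and 113 CPM in the LNP-Sirpa libraries and 249 and 366 CPM in the controls, so that LNP-Sirpa 1 lay just under control 1 while LNP-Sirpa 2 was below both. Its fold was -0.80 ± 0.33 (adjusted p = 0.474). The single libraries carried this difference: without LNP-Sirpa 1 it was -1.36 (adjusted p = 7.6e-07, with the lone LNP-Sirpa 2 assumed to vary like the controls), and without LNP-Sirpa 2 it was -0.42 (adjusted p = 0.491). With no filter on low counts the fold was -0.75, at an adjusted p of 0.0462.

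The other 6 genes in CD8 T cells were closer between groups. Pdcd1 (269 and 209 CPM in LNP-Sirpa, against 271 and 334 CPM in control), Havcr2 (132 and 131 CPM, against 134 and 148 CPM) and Cd244a (33.3 and 30.1 CPM, against 39.6 and 49.1 CPM) were lower in both LNP-Sirpa libraries than in both controls. Their folds were -0.34 ± 0.21 (adjusted p = 0.688), -0.09 ± 0.21 (adjusted p = 0.957) and -0.51 ± 0.25 (adjusted p = 0.542). Ctla4 (-0.22 ± 0.24, adjusted p = 0.861), Tigit (-0.35 ± 0.40, adjusted p = 0.875) and Cd160 (-0.42 ± 0.25, adjusted p = 0.665) had overlapping groups. In all, 1 of the 8 was higher and 4 were lower in both LNP-Sirpa libraries than in both controls, and 40% of all genes tested had groups that did not overlap (19.6% higher, 20.4% lower). The median fold of the 8 was -0.34, against -0.00023 over all genes. The 95% intervals of these folds remained wide, from -0.76 to 0.08 for Pdcd1 and from -1.13 to 0.43 for Tigit.

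Cells with gamma delta receptor transcripts were most frequent in the CD8 T gate of LNP-Sirpa 2. The 3.14% of LNP-Sirpa 1 lay within the 4.11% that the count of 0 in control 1 allows. In the NK gates the share was 14.9% and 5.45% in LNP-Sirpa 1 and 2, against 18.8% and 12.3% in control 1 and 2. The 2 LNP-Sirpa libraries differed in what such cells of the CD8 T gate held. In LNP-Sirpa 2, the 111 gated cells that carried such a UMI held 28.6 CPM of Pdcd1 (95% Poisson interval 15.6 to 48.0), against 245 CPM (226 to 265) in the other 319 cells. Tox was 20.4 CPM in them (9.80 to 37.6), against 132 CPM (118 to 147) in the others. The remaining receptors were lower there too, with Ctla4 at 61.3 against 230 CPM, Havcr2 at 81.7 against 141 CPM and Lag3 at 6.13 against 57.5 CPM. Cd160 was 16.3 against 37.8 CPM, Cd244a 16.3 against 32.9 CPM and Tigit, from 1 UMI in the 111 cells, 2.04 against 8.63 CPM. For Cd160, Cd244a and Tigit the intervals of the 111 and the other cells overlapped. In LNP-Sirpa 1 the 18 such cells did not lie below the other 556 cells for most members. Pdcd1 was 369 CPM (281 to 476) in them, against 266 CPM, Havcr2 219 against 129 CPM, Cd244a 68.7 against 32.0 CPM and Tox 294 against 243 CPM, while Ctla4 (219 against 222 CPM), Cd160 (49.98 against 52.6 CPM) and Tigit (12.5 against 18.5 CPM) were lower. In LNP-Sirpa 1 the intervals overlapped for every member but Havcr2. All these intervals cover counting error in 1 library and are no test of the condition. The 111 cells of LNP-Sirpa 2 held 858 CPM of Trdc, against none in the others by construction of the split, 11869 CPM of Gzma (granzyme A), against 266 CPM, and 997 CPM of Cd8b1, against 741 CPM. Without every such cell, Tox in CD8 T cells was 243 and 132 CPM in LNP-Sirpa 1 and 2, against 249 and 364 CPM in control 1 and 2, with a fold of -0.73 ± 0.27 (adjusted p = 0.381). Pdcd1 was then 266 and 245 CPM, against 271 and 330 CPM (fold -0.23), and Lag3 had a fold of 0.68 (adjusted p = 0.289). None of the 8 was called without these cells either.

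**Figure D3:**
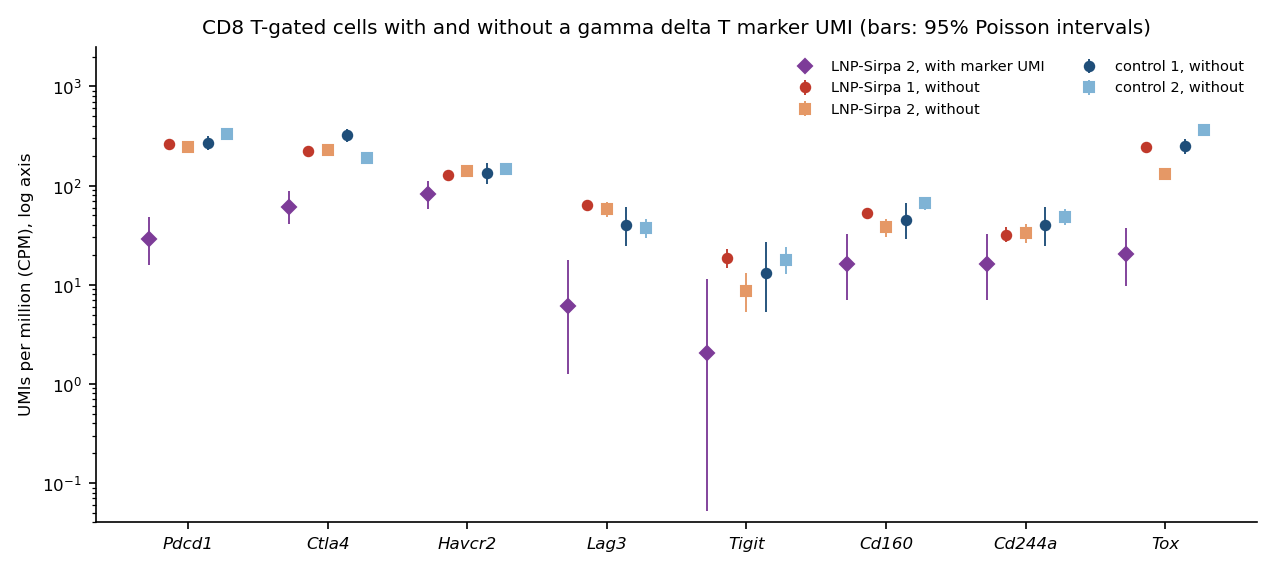
Levels of the 8 genes in CPM (vertical axis, logarithmic) in CD8 T-gated cells, with 95% Poisson intervals. Cells without a UMI of a gamma delta T marker are drawn for each library, and cells with one for LNP-Sirpa 2 only. The 18 such cells of LNP-Sirpa 1, not drawn, did not lie below the other cells there for most of the genes. In LNP-Sirpa 2 the 111 cells with such a UMI lie below the other 319 cells for all 8 genes, with Pdcd1 at 28.6 against 245 CPM. For Tigit, Cd160 and Cd244a the intervals overlap.

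Transcripts of other cells also differed between groups in these gates. The 5 neutrophil markers, all detected, summed to 275 and 716 CPM in the CD8 T cells of LNP-Sirpa 1 and 2, against 54.6 and 77.1 CPM in the controls, and to 218 and 379 CPM in regulatory T cells, against 29.4 and 10.3 CPM. In Foxp3-negative CD4 T cells they came to 765 and 107 CPM, against 80.7 and 4.19 CPM, and in NK cells to 251 and 53.4 CPM, against 7.33 and 10.1 CPM. The 13 phagocyte gate markers summed to 3542 and 3843 CPM in LNP-Sirpa CD8 T cells, against 4409 and 4273 CPM in control CD8 T cells. The 6 T cell check genes summed to 2775 and 2455 CPM, against 3506 and 3712 CPM, and the 7 NK check genes, Gzma among them, to 411 and 2486 CPM, against 494 and 261 CPM. Their part in the results was not tested.

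Regulatory T cells likewise had no member called among the 6 that passed the filter on low counts (background 0.306%); Cd160 and Cd244a did not pass it. Lag3 was 43.3 and 49.6 CPM in LNP-Sirpa 1 and 2, against 13.8 and 28.8 CPM in control 1 and 2, from 79 and 49 UMIs against 8 and 14. The groups did not overlap, and the log2 fold was 1.14 ± 0.39 (adjusted p = 0.39). Without control 2 it was 1.73, at an adjusted p of 0.0294. Tox was 256 and 171 CPM in LNP-Sirpa, against 327 and 278 CPM in control, again without overlap, with a fold of -0.50 ± 0.22 (adjusted p = 0.611). Ctla4, which this cell type holds at its highest level, differed by -0.06 ± 0.20 (adjusted p = 0.979, 95% interval -0.46 to 0.33), Pdcd1 by -0.16 ± 0.26 (adjusted p = 0.942), Havcr2 by -0.41 ± 0.26 (adjusted p = 0.794) and Tigit by 0.14 ± 0.34 (adjusted p = 0.966). Of the 6 genes, 1 was higher and 1 lower without overlap, where 37.5% of genes tested had groups apart.

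Foxp3-negative CD4 T cells and NK cells gave the same count of 0 called members, with 0.0709% of genes called in the first (4 of 5644) and 0.675% in the second (62 of 9191). Lag3 was 60.4 and 61.9 CPM in LNP-Sirpa CD4 T cells, against 32.3 and 46.1 CPM in control cells (0.49 ± 0.47, adjusted p = 0.907), where control 1 rested on 2 UMIs. It was the 1 gene of 6 whose groups did not overlap there, where 37.1% of genes had groups apart. In NK cells it was 16.9 and 11.1 CPM, against 9.29 and 7.54 CPM (0.80 ± 0.43, adjusted p = 0.608). Lag3 thus lay above both controls in both LNP-Sirpa libraries in each of the 4 lymphocyte types, with an adjusted p of 0.39 or more in each; the types share their libraries and are not independent repeats. The background of genes above both controls was 19.6% in CD8 T cells, 18.6% in regulatory T cells, 20.5% in Foxp3-negative CD4 T cells and 19.5% in NK cells. Also in NK cells, Cd160 was 41.1 and 24.5 CPM, against 52.3 and 41.1 CPM (-0.42 ± 0.27, adjusted p = 0.697), and Tox was 61.9 and 28.9 CPM, against 67.0 and 53.6 CPM (-0.28 ± 0.27, adjusted p = 0.855). Lag3 and Ctla4 were higher and Cd160 lower without overlap among the 8 in NK cells, where 38.3% of genes had groups apart.

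**Figure D4:**
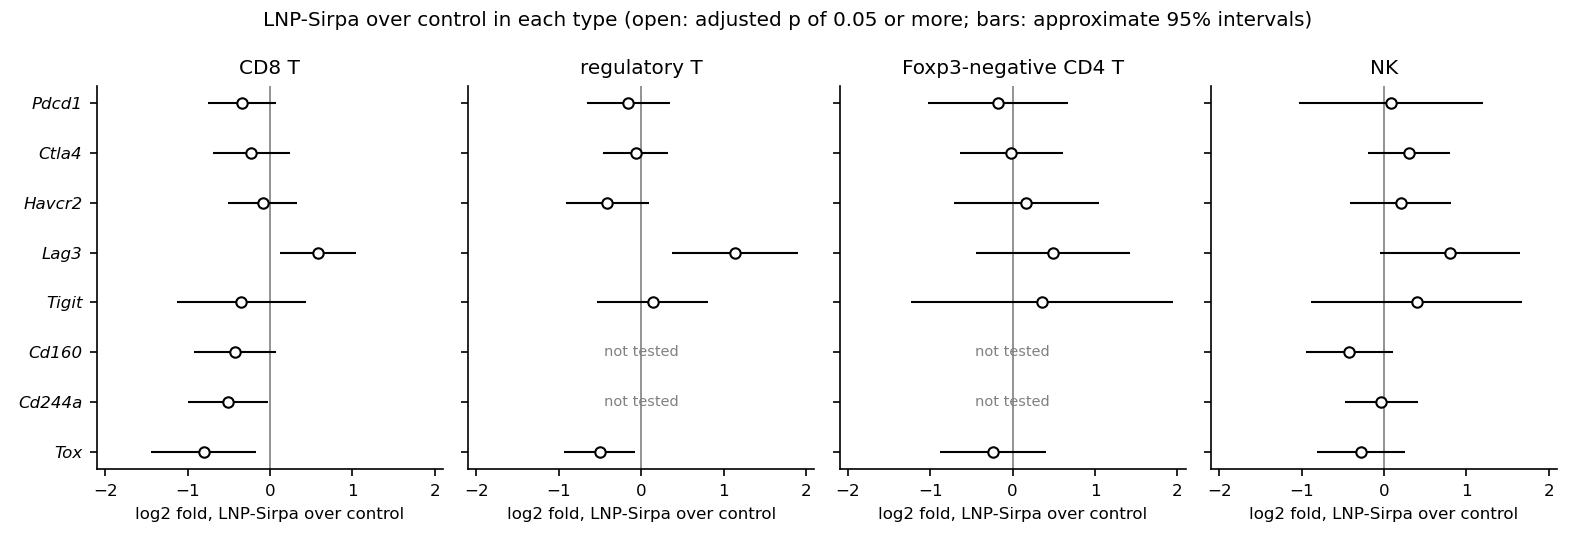
Log2 folds of LNP-Sirpa over control (horizontal axis) for the members tested (rows) in each gated type (panels), with bars for approximate 95% intervals, all points being open because no adjusted p was under 0.05. Lag3 lies right of 0 in the 4 lymphocyte types, from 0.49 to 1.14, and Tox lies left of 0 in them. The Tox levels of the groups overlapped in Foxp3-negative CD4 T and NK cells, and the types share their libraries.

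Whether the effect of LNP-Sirpa differed between types was tested directly. The difference of effects was called for none of the 8 genes between CD8 T and regulatory T cells, CD8 T and Foxp3-negative CD4 T cells, or CD8 T and NK cells, where 0.021%, 0.021% and 0.0421% of 9509 genes were called. None of the 8 had an unadjusted p under 0.05 in any of the 3. Without gamma delta marker cells in the T cell gates none was called either.

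Phagocytes carry TIM-3 and supply many of the ligands. Havcr2 was 67.2 and 56.7 CPM in LNP-Sirpa 1 and 2, against 42.7 and 53.1 CPM in control 1 and 2 (0.52 ± 0.18, adjusted p = 0.243), and Cd244a was 9.48 and 10.8 CPM, against 6.59 and 7.93 CPM (0.65 ± 0.23, adjusted p = 0.244). With Tigit, these were the 3 of 8 members higher in each LNP-Sirpa library than in each control, and none was lower in both, where 48% of the 14248 genes tested had groups apart (12.4% higher, 35.6% lower). No gene at all was called in phagocytes by edgeR (background 0%), while 2191 had an unadjusted p under 0.05 and DESeq2 called 728, no member among them. Of 13 ligand genes, 11 were tested and 0 called, with a median log2 fold of 0.46. No test was run in B cells, which numbered 9 and 5 in LNP-Sirpa 1 and 2, against 22 and 23 in control 1 and 2.

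The lists of pathway genes had few calls between the groups. In CD8 T cells, 1 of 21 receptors was called, Cd27, a costimulatory receptor, with a fold of -1.06 ± 0.22 (adjusted p = 0.0377), and 0 of 22 transcription factors and 0 of 20 signalling genes (3, 5 and 3 had an unadjusted p under 0.05). Cd27 was not called without control 1 (-1.04, adjusted p = 0.336) or without control 2 (-1.07, adjusted p = 0.382), nor under the stricter gate, at a phagocyte limit of 0.5% or without cells of high UMI count or cycling cells (adjusted p between 0.0555 and 0.214). None of the 3 lists had a call in regulatory T, Foxp3-negative CD4 T or NK cells, by edgeR, where between 0 and 5 genes of each list had an unadjusted p under 0.05.

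Cycling and non-cycling CD8 T cells were set side by side within each library, cells with a UMI of Mki67 or Top2a being called cycling. They made up 38.9% and 34.2% of CD8 T cells in LNP-Sirpa 1 and 2, against 49.3% and 36.8% in control 1 and 2. Ctla4 was lower in cycling cells (189, 190, 246 and 161 CPM in LNP-Sirpa 1, LNP-Sirpa 2, control 1 and control 2) than in non-cycling cells (258, 212, 425 and 217 CPM). The direction was the same in all 4 libraries, and the log2 fold of -0.48 ± 0.10 was called (adjusted p = 0.00159), as were 6.12% of 9657 genes (2.08% lower). It was not called without LNP-Sirpa 1 (-0.46, adjusted p = 0.0547) nor without cells of high UMI count (-0.30, adjusted p = 0.169). The fold was -0.35 ± 0.11 for Havcr2 (adjusted p = 0.0683), -0.25 ± 0.10 for Pdcd1 (adjusted p = 0.138), -0.32 ± 0.17 for Lag3 (adjusted p = 0.351) and -0.47 ± 0.28 for Tigit (adjusted p = 0.444), none called; without control 1, Havcr2 (-0.39, adjusted p = 0.0456) and Pdcd1 (-0.32, adjusted p = 0.0376) passed. They also passed without gamma delta marker cells (-0.38, adjusted p = 0.0416, and -0.31, adjusted p = 0.044), where Ctla4 was -0.53 (adjusted p = 0.000257). Cycling cells were deeper, with median UMIs of 8231, 8315, 7546 and 7942, against 5355, 4605, 5287 and 5386 in non-cycling cells, and the calls of Ctla4, Cd27 and Cd28 were lost when cells of high UMI count were left out. In the same comparison 4 of 20 counterpart receptors were lower and none higher, among them Cd27 (-0.55 ± 0.12, adjusted p = 0.0025) and Cd28 (-0.42 ± 0.10, adjusted p = 0.00402), with 5 of 22 transcription factors lower, among them Lef1 (-1.13 ± 0.22, adjusted p = 0.000565), and 3 of 19 signalling genes lower. Without LNP-Sirpa 1, Cd27 (adjusted p = 0.0744) and Cd28 (adjusted p = 0.0674) were no longer called. Without cells of high UMI count neither Cd27 (-0.42, adjusted p = 0.0744) nor Cd28 (-0.31, adjusted p = 0.142) was called, and Cd28 was not called without control 2 (adjusted p = 0.14) or by DESeq2 (adjusted p = 0.074).

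How many of the 8 genes a single CD8 T cell showed was counted after thinning each cell to 2000 UMIs, which left 554 and 396 cells in LNP-Sirpa 1 and 2, and 72 and 331 in control 1 and 2. The mean was 1.58 and 1.19 genes per cell in the LNP-Sirpa libraries, against 1.56 and 1.74 in the controls. The groups overlapped, and the difference of -0.258 had a two-sided exact permutation p of 0.667, where the smallest p that 2 against 2 libraries allow is 0.333. Unthinned, the means were 3.17 and 2.43, against 2.95 and 3.44. Without gamma delta marker cells the thinned means were 1.58 and 1.45, against 1.56 and 1.74 (difference -0.131, p = 0.667 by the same exact permutation test). At least 1 gene was seen in 78.7% and 66.2% of LNP-Sirpa cells, against 81.9% and 84.0% of control cells, and at least 4 in 7.04% and 3.79%, against 9.72% and 7.25%. In regulatory T cells the thinned mean was 1.49 and 1.51, against 1.60 and 1.71, with both LNP-Sirpa libraries below both controls (exact permutation p = 0.333, the smallest possible). Unthinned, the regulatory T means were also apart, at 2.48 and 2.14, against 2.52 and 2.61. The thinned mean in NK cells was 0.652 and 0.556, against 0.614 and 0.447. In Foxp3-negative CD4 T cells it was 1.29 and 1.43, against 1.08 and 1.28, with both LNP-Sirpa libraries above both controls (exact permutation p = 0.333, the smallest possible). Unthinned, these means overlapped between the groups, at 2.17 and 2.16, against 1.75 and 2.60.

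By gene, thinned cells with a Pdcd1 UMI made up 40.3% and 30.8% of CD8 T cells in LNP-Sirpa 1 and 2, against 37.5% and 45.3% in control 1 and 2. In phagocytes at the same depth the share was 0.705% and 0.532%, against 0.211% and 0.59%. That gate left out any cell with a Cd3, NK or B marker UMI, so its shares cannot stand for free T cell RNA. Unthinned, the CD8 T shares were 67.1% and 51.9%, against 60.3% and 75.1%. Tox was seen in 33.2% and 15.7% of thinned LNP-Sirpa CD8 T cells, against 30.6% and 42.0% of control cells, and Lag3 in 11.7% and 10.4%, against 8.33% and 7.25%. Without gamma delta marker cells the shares were 39.9% and 39.7%, against 37.5% and 45.2%, for Pdcd1, 32.8% and 20%, against 30.6% and 42.1%, for Tox, and 11.9% and 13.4%, against 8.33% and 7.27%, for Lag3. The Havcr2 share of 21.5% in each LNP-Sirpa library, against 18.1% and 23.0%, has to be read beside 11.1% and 10.9% in phagocytes, against 8.34% and 9.36%.

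**Figure D5:**
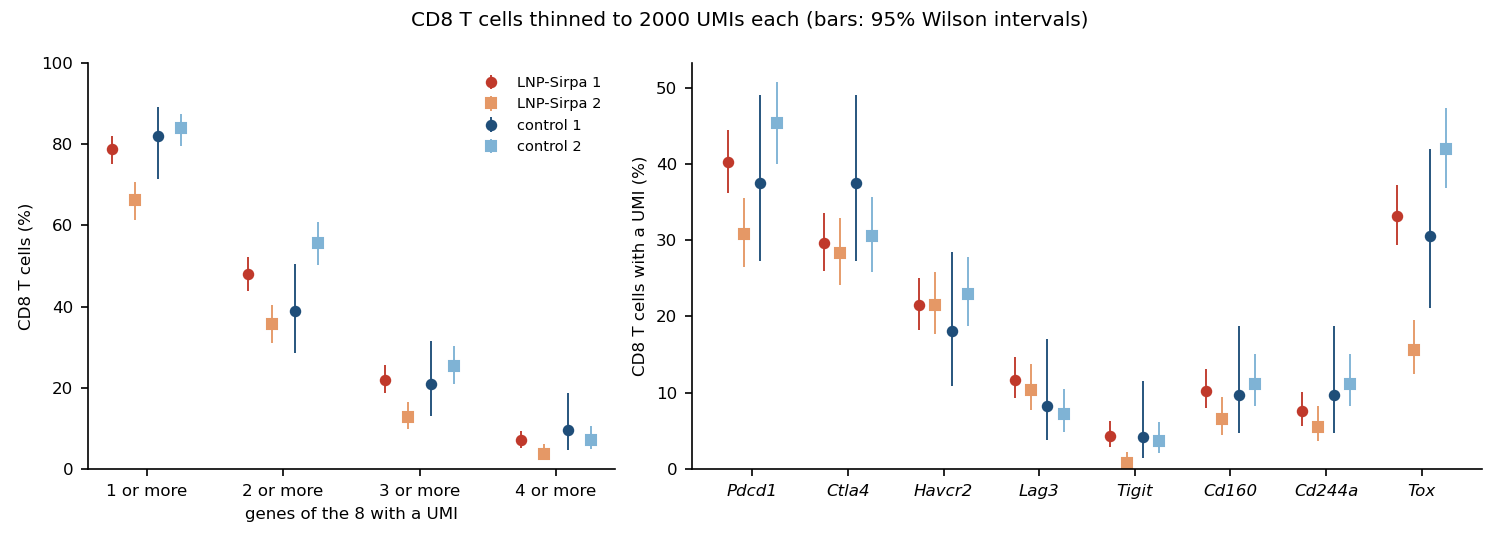
Left, CD8 T cells in percent by how many of the 8 genes had a UMI, and right, the percentage with a UMI of each gene, both after thinning to 2000 UMIs per cell, by library with 95% Wilson intervals. LNP-Sirpa 2 is lowest for Pdcd1 (30.8%) and Tox (15.7%), whereas LNP-Sirpa 1 lies between the 2 controls for both.

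Within each library, Tox was seen in a larger share of the cells with Pdcd1 than of those without it. Among thinned CD8 T cells with a Pdcd1 UMI, 41.7% and 27.0% had one of Tox in LNP-Sirpa 1 and 2, and 48.1% and 46.7% in control 1 and 2. Among cells with none of Pdcd1 the shares were 27.5% and 10.6%, and 20% and 38.1%. Leaving out cells with gamma delta marker UMIs gave 41.6% and 27.3%, and 48.1% and 47.0%, with Pdcd1, and 27.0% and 15.2%, and 20% and 38.1%, without it. Havcr2 was also more frequent beside Pdcd1, in 27.4% and 28.7%, and 25.9% and 25.3% of cells with it, against 17.5% and 18.2%, and 13.3% and 21.0% of cells without it. Leaving out the same cells gave 27.1% and 28.9%, and 25.9% and 25.5%, with Pdcd1, against 17.1% and 19.0%, and 13.3% and 21.0%, without it. With every cell kept, Wilson intervals with and without Pdcd1 overlapped for Havcr2 in each library and for Tox in both controls. Lag3, Cd160 and Cd244a were also more frequent beside Pdcd1 in each library, with Cd244a at 7.62% against 7.55% in LNP-Sirpa 1. Ctla4 was not so in control 1 (37.0% against 37.8%), nor Tigit in LNP-Sirpa 1 (4.04% against 4.53%). Without gamma delta marker cells, Cd160, Cd244a and Tigit were less frequent beside Pdcd1 in LNP-Sirpa 2. These shares describe single libraries, since cells of 1 library are not replicates.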

How the data were processed

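The authors deposited UMI counts per gene and cell for 4 libraries of CD45+ cells from MC38 tumours. Per the labels' protocols, they were made with the DNBelab C Series kit and sequenced on DNBSEQ-T7, and the submitters' processing notes name STAR 2.5.1b, PISA 1.0 and the build GRCm39, with no role given. The 4 oligo libraries are not analysed here. The members, gene lists and tests were chosen with earlier results of these data known, and the thresholds of the gates after the marker distributions had been seen.

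A cell was dropped below 500 UMIs or 300 detected genes, or where mitochondrial genes took over 15% of its UMIs. The lowest total per cell in the files was 1000 UMIs. Gates used sums of lineage marker UMIs, as stated above, and phagocytes needed at least 2% of their UMIs from 13 marker genes and no Cd3, NK or B marker UMI. No doublet caller was run, and leaving out cells above 2 times the median UMI count of their type stands in for it. Cell names are running names, not barcode sequences: between 830 and 1242 were shared by each pair of libraries, which says nothing on shared cells.

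Counts were summed per library and type and tested with edgeR 4.0.16 (quasi-likelihood, TMM, filterByExpr, robust) in R 4.3.3, with Benjamini-Hochberg adjustment over all genes tested and a threshold of 0.05. DESeq2 1.42.0 was an alternative, and limma 3.58.1 served edgeR. Means per cell were tested by exact permutation in Python 3.11.15 with scipy 1.17.1, pandas 2.3.3 and numpy 2.4.6. The scripts were tested on simulated data. Intervals of counts (exact Poisson) and of shares (Wilson) are 95% and cover counting error only, as do floors of 3 UMIs. The 95% intervals of log2 folds are approximate and were built from the fold and its SE in the edgeR test. They treat the fold as normally distributed and make no allowance for the small number of libraries. The text names all 8 members, Sirpa, up to 4 called genes per list with the smallest p, and the 3 genes most like Pdcd1 and Tox.

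The replicate numbers were checked as pairs. Within CD8 T, regulatory T, Foxp3-negative CD4 T, NK cells and phagocytes, the differences between replicates of the 2 groups correlated at 0.097, 0.039, 0.177, -0.0098 and 0.0052 over genes, and nothing in the labels ties the numbers, so they were treated as names.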

Additional observations from a re-analysis of the deposited data

Results flagged for a closer look

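In the CD8 T gate of LNP-Sirpa 2, 25.8% of cells (111 of 430) had a UMI of a gamma delta T cell receptor gene, genes that no comparison of the members used, against 0.599% and at most 4.11% (a count of 0) in the CD8 T gates of control 2 and control 1. These cells held less of all 8 genes than the other CD8 T-gated cells of that library, with overlapping Poisson intervals for Tigit, Cd160 and Cd244a. The 18 such cells of LNP-Sirpa 1 held more Pdcd1, Havcr2, Cd244a and Tox than the others there, with intervals apart for Havcr2 only. The part of the marker cells in the LNP-Sirpa comparison is shown by the values with and without them in the report. No other result was marked, since groups of 2 libraries were too small for a search for outlying samples and no difference of the LNP-Sirpa effect between types was called for a member.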

How the results depend on the processing

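Over 947 values of members under an alternative, 882 kept direction and side of the threshold. Of the rest, 26 lost a call, 12 gained one and 27 changed sign, none of the last being called. Not every member entered in every comparison. For LNP-Sirpa over control, only Lag3 entered in Foxp3-negative CD4 T cells and only Lag3, Cd160 and Tox in NK cells. In phagocytes only Havcr2 and Cd244a entered. For cycling over non-cycling cells Pdcd1, Havcr2, Lag3, Tigit and Ctla4 entered, and the differences of effects were left out. The 882 include folds that were not called in the first place, so they are no count of calls held. An alternative with a stricter filter on cells left the lymphocyte gates unchanged, so its values were the same by construction. No alternative ended a member's call in regulatory T over NK cells. Of 221 such values of other named genes, 12 lost a call, all of Cd27 or Cd28. Counts of called genes moved more, and the causes were not tested except where fewer genes, cells or libraries entered by construction. The 2 libraries of a group limit every comparison between groups, and Foxp3-negative CD4 T cells of control 1 rest on 61996 UMIs.

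For LNP-Sirpa over control, called genes in CD8 T cells (80) numbered 369 with no filter on low counts, 53 under the stricter gate, 8 at a phagocyte limit of 0.5%, 33 without cells of high UMI count, 33 without cycling cells and 322 with the replicate block, and 8 to 477 on leaving out 1 library. In regulatory T cells (24) they numbered 37 by DESeq2, 37 with DESeq2 size factors, 203 with no filter, 39 without high-UMI cells, 40 without cycling cells, 61 with the replicate block and 86 to 219 on leaving out 1 library. In Foxp3-negative CD4 T cells (4) they numbered 1 by DESeq2, 63 with no filter, 1 under the stricter gate, 0 at the 0.5% limit, 0 without high-UMI cells, 13 with the block and 16 to 146 on leaving out 1 library. In NK cells (62) they numbered 23, 212, 37 and 6 by DESeq2, with no filter, under the stricter gate and without cycling cells, 164 with the block and 77 to 406 on leaving out 1 library. In phagocytes (0) they numbered 728 by DESeq2, 1345 with no filter, 193 with the block and 0 to 639 on leaving out 1 library. The block changed no call of a member.

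Between types, leaving out 1 library gave 1043 to 1662 for CD8 T over regulatory T cells (1652), 403 to 721 for CD8 T over Foxp3-negative CD4 T cells (737), 761 to 1273 for CD8 T over NK cells (1454, and 963 without cycling cells), 162 to 418 for regulatory T over Foxp3-negative CD4 T cells (378), 1911 to 2725 for regulatory T over NK cells (2948) and 1237 to 1825 for Foxp3-negative CD4 T over NK cells (2017). Cycling over non-cycling cells (591) gave 248 by DESeq2, 259 without high-UMI cells and 263 to 645 on leaving out 1 library. The difference of effects between CD8 T and regulatory T cells (2) gave 25 with no filter, 1 under the stricter gate, at the 0.5% limit and without high-UMI cells, 4 without cycling cells and 0 to 32 on leaving out 1 library. Between CD8 T and Foxp3-negative CD4 T cells (2) it gave 1 by DESeq2, 50 with no filter, 0 at the 0.5% limit, 1 without high-UMI cells, 0 without cycling cells, 5 without gamma delta marker cells and 5 to 24. Between CD8 T and NK cells (4) it gave 0 by DESeq2, 43 with no filter, 0 at the 0.5% limit, 21 without high-UMI cells and 4 to 18.

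Sign changes among the 947 values, all of uncalled folds, were as follows. For LNP-Sirpa over control, Havcr2 in CD8 T cells was 0.0304 at the 0.5% limit and 0.0737 without high-UMI cells, Tigit in regulatory T cells -0.40 without high-UMI and -0.25 without cycling cells, and Lag3 in Foxp3-negative CD4 T cells -0.10 without cycling cells. On leaving out 1 library, Havcr2, Tigit and Ctla4 in CD8 T cells ran from -0.17 to 0.0325, -1.04 to 0.0438 and -0.55 to 0.15, and Pdcd1, Tigit and Ctla4 in regulatory T cells from -0.34 to 0.12, -0.24 to 0.66 and -0.23 to 0.16. Between types, Tox in CD8 T over regulatory T cells was -0.14 without high-UMI and -0.16 without cycling cells (-0.16 to 0.18 on leaving out 1 library), and in CD8 T over Foxp3-negative CD4 T cells -0.036 without high-UMI cells (-0.0444 to 0.57). Lag3 in CD8 T over Foxp3-negative CD4 T cells was -0.32 under the stricter gate and -0.18 without high-UMI cells (-0.0321 to 0.16), and in regulatory T over Foxp3-negative CD4 T cells 0.0502 without cycling cells. Cd244a in regulatory T over Foxp3-negative CD4 T cells was -0.74 without cycling cells (-0.0948 to 0.63), and Tox there ran from -0.10 to 0.40.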

Other observations

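T-marker cells with CD8 transcripts that were left out for their phagocyte UMIs numbered 440 and 192 in LNP-Sirpa 1 and 2, and 91 and 449 in control 1 and 2. They held more UMIs per cell, a median of 16721 in LNP-Sirpa 1 and 14596 in LNP-Sirpa 2. Their Pdcd1 level was 103 and 46.0 CPM in LNP-Sirpa 1 and 2, and 93.5 and 141 CPM in control 1 and 2. Tox was 120 and 39.1 CPM, against 99.5 and 178 CPM, again with LNP-Sirpa 2 lowest of the 4. Lag3 was 29.5 and 17.7 CPM, against 16.2 and 17.5 CPM, with LNP-Sirpa 2 only just above control 2. The share of all genes with groups apart was not computed for these cells. They come from the same libraries and are no further repeat.

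Most transcripts of each of the 8 genes lay outside the lymphocyte gates. Cells that fell in no gate, 58.2% of all cells, held between 58.4% (Ctla4) and 66.6% (Tox) of a gene's UMIs. Some of these were cells with at least 3 Cd3 UMIs. Those over the phagocyte limit held between 17.1% (Cd244a) and 40.2% (Pdcd1) of a gene's UMIs. Those within the limit but in no gate held between 2.60% (Havcr2) and 14.1% (Cd160). The CD8 T gate held between 7.25% (Havcr2) and 30.0% (Pdcd1) of a gene's UMIs, with 7.70% for Cd244a and 22.0% for Cd160. The phagocyte gate, which took 33.8% of all cells, held between 1.81% (Cd160) and 28.0% (Havcr2).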
